A study of Mus musculus with 7 samples.

Results

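The Ceacam genes Ceacam1, Ceacam2, Ceacam10, Ceacam16, Ceacam18 and Ceacam19 were examined in mouse cutaneous squamous cell carcinoma, as 6 of the 16 Ceacam genes, a pseudogene included, among the 55423 features of the count table. They were proposed together with their values in this comparison known, so the differences between tumours that are given for them are a description and carry no test. Bulk RNA had been sequenced from tumours of Ivl:BRAFV600E mice, in which a tamoxifen-inducible Cre under the involucrin promoter switches on oncogenic BRAF, and from tumours of Ivl:BRAFV600E-SOX2LSL mice, which carry in addition a Rosa26 allele that gives SOX2 and eGFP after recombination. Both groups share the Cre, the BRAF allele, the C57BL/6J background and topical tamoxifen, given at 7 to 10 weeks of age per the labels. Counts of 3 tumours per genotype were used, although the labels list 4 Ivl:BRAFV600E tumours, and the tumours are called BRAF 1 to 3 and SOX2LSL 1 to 3 (the numbers are only names). Per the study's Source Data, every SOX2LSL tumour was collected earlier after induction than every BRAF tumour, so time since induction and genotype cannot be told apart. BRAF 1, BRAF 2 and SOX2LSL 3 came from females, and BRAF 3, SOX2LSL 1 and SOX2LSL 2 from males, so sex was not balanced between the groups.

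CEACAM proteins are cell surface or secreted glycoproteins of the immunoglobulin superfamily that bind each other between neighbouring cells. CEACAM1 is the most widely expressed of them, on epithelia, endothelium and leukocytes. Its long splice form has a cytoplasmic tail whose tyrosine motifs recruit the phosphatases SHP-1 and SHP-2 and dampen receptor signalling. Ceacam2 is a close rodent duplicate of Ceacam1, Ceacam10 encodes a short secreted form, and CEACAM16 is a secreted protein of the tectorial membrane of the inner ear.

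The tumours had between 23565432 and 31152826 counts on genes, and levels are given as CPM (counts scaled to library size, with TMM). The labels were checked first. Sox2, the induced gene, lay between 0.238 and 0.716 CPM in the BRAF tumours and between 155 and 182 CPM in the SOX2LSL tumours, and EGFP had no read in the BRAF tumours and 110 to 139 CPM in the others. With an adjusted p under 0.05 in edgeR taken as a call, 954 of the 24433 genes that passed the filter were called (3.90%), of which 585 were higher (2.39%) and 369 lower (1.51%) in SOX2LSL tumours, while 18.2% of all genes were higher and 16.0% lower without overlap between groups. At an unadjusted p below 0.05, 14.5% were higher and 11.2% lower. DESeq2 called 10.5% higher and 7.76% lower of the 20046 genes to which it gave an adjusted p, and voom 4.80% and 3.97% of all genes. A gene was treated as not distinguishable from 0 at 3 counts or fewer, which is 0.0839 to 0.142 CPM depending on the tumour. These limits and all counting intervals cover counting error only.

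All 6 members lie on chromosome 7 (GRCm38, GENCODE M21). Ceacam16 (19852097 to 19861299) and Ceacam19 (19875742 to 19887965) are neighbours on the minus strand, Ceacam10 (24777206 to 24784657) is on the plus strand, Ceacam1 (25461707 to 25477603) and Ceacam2 (25516042 to 25539857) are adjacent on the minus strand, and Ceacam18 (43634707 to 43649295) is on the plus strand. The sequences directly before the starts of Ceacam1 and Ceacam10 are shown because these promoters are nearly the same while in the SOX2LSL tumours Ceacam1 had the highest RNA level of the members and Ceacam10 did not exceed 3 reads. In the BRAF tumours Ceacam19, not Ceacam1, was highest. In RefSeq (GRCm38.p6), 222 of 232 aligned bases were identical between chr7:25477644-25477875 (minus strand), which ends 19 bases before the Ceacam1 start, and chr7:24776935-24777166 (plus strand), which ends at the base before the first of the 2 Ceacam10 starts listed. Capitals mark the 10 bases that differ.

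Ceacam1: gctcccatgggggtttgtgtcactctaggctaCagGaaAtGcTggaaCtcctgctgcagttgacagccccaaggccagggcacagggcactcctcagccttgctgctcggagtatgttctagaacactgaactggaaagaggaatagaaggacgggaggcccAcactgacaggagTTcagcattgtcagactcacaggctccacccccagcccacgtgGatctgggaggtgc
Ceacam10: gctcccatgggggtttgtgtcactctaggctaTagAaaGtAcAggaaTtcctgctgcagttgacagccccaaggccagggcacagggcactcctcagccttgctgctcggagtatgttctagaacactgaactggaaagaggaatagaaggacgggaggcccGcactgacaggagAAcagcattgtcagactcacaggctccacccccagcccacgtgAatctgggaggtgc

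Within the 250 bases aligned before each RefSeq start, the Ceacam2 promoter matched the outer part of the Ceacam1 promoter. The match ran to the last base before the RefSeq start of Ceacam2. This start lies upstream of the GENCODE start, and matching beyond it was not examined. In the 119 bases before the Ceacam2 start (chr7:25540005-25540123, minus strand), 104 of 119 aligned bases were identical to Ceacam1, and the matching Ceacam1 bases lie 250 to 131 bases before its start. Capitals mark the bases of Ceacam2 that differ. No comparable alignment was found for Ceacam18 or Ceacam19, where the best match covered 10 and 27 bases.

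Ceacam2: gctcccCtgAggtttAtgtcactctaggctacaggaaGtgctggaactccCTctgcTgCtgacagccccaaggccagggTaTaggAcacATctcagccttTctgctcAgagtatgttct

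Promoters of 250 bases before to 50 bases after the RefSeq start were scanned on both strands for 4 motifs. In Ceacam2 these 50 bases lie before the GENCODE start. The SOX motif (CATTGTT or CTTTGTT), present in 9.36% of 32851 promoters, was found in Ceacam2 alone among the members with an entry, as AACAATG from base 27 after the start. The AP-1 motif (TGANTCA, 7.81% of promoters), the AP-2 motif (GCCNNNGGC, 16.6%) and the interferon response motif of IRF factors (3.44%) were found in none of them. The shorter SOX core (CATTGT or CTTTGT), added after the sequences were seen and present in 28.6% of promoters, occurred in Ceacam1 70 bases before the start and again as ACAAAG from 2 bases before it. The first of these cores is shared with Ceacam10, where it lies 52 or 89 bases before the start depending on the entry. The core was also found in Ceacam2, as ACAATG from base 28 after the start, and in Ceacam18, as CTTTGT 244 bases before it, so Ceacam19 was the member with an entry that lacked it. A match of letters does not show a binding site.

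Ceacam1 had the largest difference of the members. It had 2.63, 0.970 and 4.04 CPM in BRAF 1, 2 and 3 (77, 21 and 85 reads) and 364, 228 and 239 CPM in SOX2LSL 1, 2 and 3 (13012, 7046 and 6610 reads). The groups were far apart, with the lowest SOX2LSL tumour well above the highest BRAF tumour. Group means were 2.54 ± 1.54 and 277 ± 75.6 CPM (SD, n = 3 each), a 109-fold ratio, and the fitted log2 fold change was 6.76 (standard error 0.54). BRAF 2 was the lowest and SOX2LSL 1 the highest tumour. In bulk RNA, more cells with the gene and more RNA per cell cannot be told apart.

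**Figure D1:**
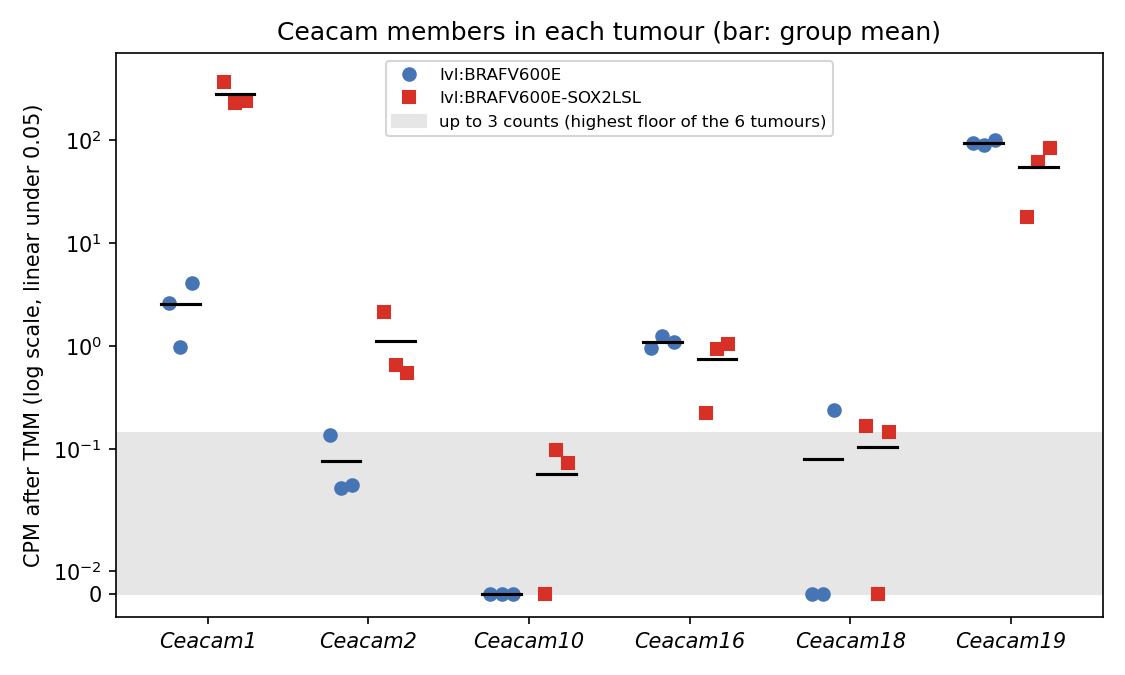
CPM after TMM of the 6 members in each tumour, on a log scale that is linear under 0.05, with BRAF tumours as circles, SOX2LSL tumours as squares, group means as bars and the range of up to 3 counts in grey. Ceacam1 lies at or below 4.04 CPM in BRAF and at or above 228 CPM in SOX2LSL tumours, Ceacam19 is lower in SOX2LSL tumours, and Ceacam10 and Ceacam18 stay near the grey range.

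Ceacam2, the neighbour and closest relative of Ceacam1, had 4, 1 and 1 reads in the BRAF tumours and 76, 20 and 15 reads in the SOX2LSL tumours. Its levels were 0.136, 0.0462 and 0.0475 CPM against 2.13, 0.648 and 0.542 CPM, and the groups did not overlap. The ratio of pooled reads, corrected for library size, was 14.1 (95% exact counting interval 6.29 to 39.3), and the log2 fold change was 3.71 (standard error 0.79). As in Ceacam1, SOX2LSL 1 was the highest tumour. Without it, the log2 fold change of Ceacam2 was 2.80, and that of Ceacam1 was 6.52.

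Ceacam1 and Ceacam2 share sequence to an extent that reads can share too. Of the coding bases of their longest transcripts, 1411 of 1560 aligned bases were identical, against 616 of 795 for Ceacam1 and Ceacam10. The longest identical coding run of Ceacam1 and Ceacam2 was 319 bases, longer than a single read of 150 bases. Its first 150 bases, from base 664 of both coding sequences (GENCODE M21), are shown as an example of a single read that could come from either gene. Per the study's methods the reads were paired, so a mate outside such a run can tell the genes apart. The shares of stretches given below do not take the mate into account.

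Ceacam1 and Ceacam2: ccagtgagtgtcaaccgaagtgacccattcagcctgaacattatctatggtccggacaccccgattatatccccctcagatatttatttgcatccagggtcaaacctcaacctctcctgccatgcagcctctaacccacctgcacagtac

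Among all stretches of 150 bases in Ceacam2 transcripts, 23.2% also occurred in Ceacam1 transcripts, and 14.2% of those of Ceacam1 occurred in Ceacam2. On the same strand, no such stretch of Ceacam10, Ceacam16, Ceacam18 or Ceacam19 occurred in another gene, and on the opposite strand 7.83% of those of Ceacam16 occurred in Gm19345 and none of the other members' did. For 100 Ceacam1 reads there were 5.19, 4.76 and 1.18 Ceacam2 reads in the BRAF tumours and 0.584, 0.284 and 0.227 in the SOX2LSL tumours. The BRAF values rest on 1 to 4 Ceacam2 reads. As a share of the pair's reads, the 95% exact intervals of BRAF 2 (0.115 to 22.8%) and BRAF 3 (0.0294 to 6.31%) contain the SOX2LSL shares of 0.581, 0.283 and 0.226%. The interval of BRAF 1 (1.36 to 12.2%) lies above those of the SOX2LSL tumours, and that of SOX2LSL 1 (0.458 to 0.726%) above those of SOX2LSL 2 (0.173 to 0.437%) and SOX2LSL 3 (0.127 to 0.373%). The part of Ceacam1 reads in the Ceacam2 counts was not tested.

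Ceacam10, which encodes a secreted protein, had 0 reads in every BRAF tumour and 0, 3 and 2 reads in SOX2LSL 1, 2 and 3. It did not pass the filter on low counts and no fold is given, since no tumour exceeded 3 counts. SOX2LSL 1, the tumour with the most Ceacam1, had no Ceacam10 read. In SOX2LSL 1, 2 and 3, the near-identical promoter stretches stood beside 13012, 7046 and 6610 Ceacam1 reads and 0, 3 and 2 Ceacam10 reads. The part of the promoters in this difference was not tested. Ceacam18 was also near the limit, with 0, 0 and 5 reads against 6, 0 and 4. Its log2 fold change of 0.47 had a standard error of 1.58, and it was 4.66 without BRAF 3, the only BRAF tumour with reads.

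Ceacam19, which encodes a transmembrane member of the family, had the highest level in BRAF tumours. It had 93.3, 90.1 and 99.2 CPM in BRAF 1, 2 and 3 and 17.8, 60.7 and 83.8 CPM in SOX2LSL 1, 2 and 3. The BRAF tumours were close together and the SOX2LSL tumours spread widely below them, without overlap. Means were 94.2 ± 4.61 and 54.1 ± 33.5 CPM (SD, n = 3 each), with a log2 fold change of -0.80 (standard error 0.48). This difference rests in part on SOX2LSL 1, without which it was -0.38.

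The summed level of the keratinocyte markers was 82500, 123100 and 107500 CPM in the BRAF tumours and 12640, 45990 and 42810 CPM in the SOX2LSL tumours, again lowest in SOX2LSL 1. Of the 8 markers edgeR called 0 (3.90% of all genes), while 1 was higher and 3 lower at an unadjusted p below 0.05 (14.5% and 11.2%). DESeq2 called 1 higher and 3 lower (10.5% and 7.76%), and voom 1 and 1 (4.80% and 3.97%). The sum was carried by Krt1, Krt10 and Krt14, with log2 fold changes of -2.2, -3.1 and -0.65. Krt1 and Krt10 were lower without overlap (16.0% of all genes), while Krt14 overlapped. Of the other markers Krt5, Trp63 and Dsg3 had log2 fold changes of 0.29, 0.10 and 0.69, and Dsg3 was higher without overlap, whereas Perp and Ivl had -1.27 and -0.64, and Perp was lower without overlap. Without Krt1, Krt10 and Krt14, left out after the values were seen, the groups overlapped, and SOX2LSL 1 was again lowest with 4679 CPM. The part of keratinocyte content in the Ceacam19 values was not tested.

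Ceacam16, the tectorial membrane gene, was low in all tumours. It had 28, 27 and 23 reads in the BRAF tumours and 8, 29 and 29 reads in the SOX2LSL tumours, or 0.955, 1.25 and 1.09 CPM against 0.224, 0.939 and 1.05 CPM. The groups overlapped, and only SOX2LSL 1 was clearly lower. The log2 fold change was -0.58 (standard error 0.56) and was -0.14 without SOX2LSL 1. The exons of Ceacam16 share 380 bases, 23.2% of its exon length, with the oppositely transcribed gene Gm19345, which had 0.784, 1.20 and 1.19 CPM and 0.364, 0.875 and 1.30 CPM. Since the counting of strands is not stated, reads of this overlap cannot be assigned to either gene.

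Tecta, the tectorin that binds CEACAM16 in the tectorial membrane, was higher in SOX2LSL tumours. It had 0.171, 0.139 and 0.0475 CPM in the BRAF tumours and 1.51, 2.01 and 1.95 CPM in the SOX2LSL tumours, a log2 fold change of 3.85 with a standard error of 0.48 (edgeR adjusted p = 0.0167). The call was lost without BRAF 1, BRAF 2 or SOX2LSL 2. Of the other tectorial membrane genes, Otoa passed the filter and was not called, Tectb had 4, 3 and 3 reads against 1, 0 and 1, and Otog and Otogl did not exceed 3 reads. Ceacam16 thus overlapped between groups where Tecta did not.

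The leading member of the family differed between genotypes. Summed over the members, levels were 97.0, 92.3 and 104.6 CPM in the BRAF tumours and 384, 290.6 and 324 CPM in the SOX2LSL tumours. Ceacam19 made up 96.2, 97.6 and 94.8% of this sum in the BRAF tumours, and Ceacam1 made up 94.7, 78.5 and 73.6% of it in the SOX2LSL tumours against 2.71, 1.05 and 3.86% in the BRAF tumours. Per kb of exon, where genes can be compared, Ceacam1 was 47.7 ± 13.0 and Ceacam19 16.1 ± 9.96 CPM per kb in SOX2LSL tumours (SD, n = 3), without overlap. In BRAF tumours Ceacam19 came first with 28.0 ± 1.37 CPM per kb, while Ceacam16 with 0.672 ± 0.0894 and Ceacam1 with 0.438 ± 0.265 overlapped and cannot be ordered. Behind Ceacam19 in SOX2LSL tumours, Ceacam16 with 0.451 ± 0.274 and Ceacam2 with 0.292 ± 0.234 CPM per kb overlapped too. Ceacam18 and Ceacam10 were lowest, with 0.0529 ± 0.0461 and 0.0377 ± 0.0337 CPM per kb, and overlapped.

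**Figure D2:**
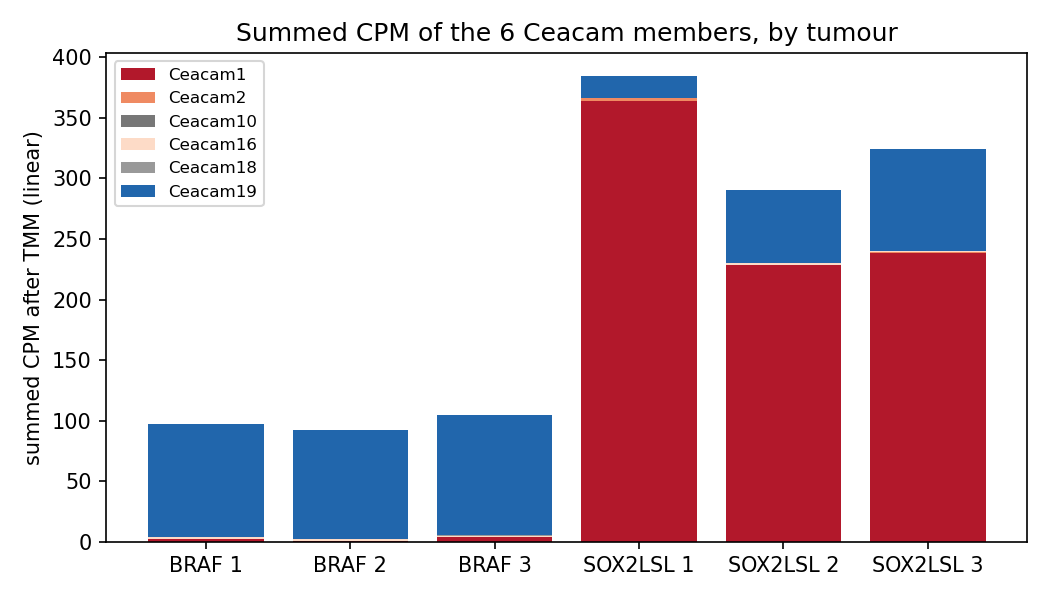
Summed CPM after TMM of the 6 members in each tumour (linear axis from 0), stacked by gene. The bars are almost all Ceacam19 in BRAF tumours and mostly Ceacam1 in SOX2LSL tumours.

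Of the 6 members, 5 passed the filter, 2 of them (Ceacam1 and Ceacam2) were higher and 1 (Ceacam19) lower without overlap, and 1 (Ceacam1) had an adjusted p below 0.05. Since the members were chosen on these values, nothing is read from these counts against the 3.90% called over all genes. Outside the members, 9 Ceacam and 13 of 14 listed Psg genes, which encode the related pregnancy-specific glycoproteins, were in the table. Of these, 16 did not exceed 3 reads in any tumour and 3 passed the filter. None of the 3 was called by edgeR, and 1 was higher at an unadjusted p below 0.05 (14.5% of all genes). DESeq2 called 1 higher (10.5%) and voom 0. That gene was Ceacam12, with 4, 0 and 5 reads in the BRAF tumours and 52, 14 and 24 in the SOX2LSL tumours (log2 fold change 2.85, SE 0.86, edgeR adjusted p = 0.103), and SOX2LSL 1 was again highest.

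Of 21 other annotated genes within 200 kb, 15 were tested, 1 was called higher and 0 lower by edgeR, or 6.67% against 3.90% of all genes. At an unadjusted p below 0.05, 1 was higher and 4 were lower (14.5% and 11.2% of all genes), DESeq2 called 1 higher and 2 lower (10.5% and 7.76%), and voom 1 and 1 (4.80% and 3.97%). Their median log2 fold change was 0.07, against 0.04 over all genes. The called gene was Cic, the capicua repressor, with 103 CPM on average in BRAF and 163 CPM in SOX2LSL tumours (log2 fold change 0.66, SE 0.13, edgeR adjusted p = 0.0415). Cic lost this call with upper-quartile scaling, with sex as a covariate and in fits without BRAF 1, 2 or 3 or SOX2LSL 2 or 3. The antisense gene 4732471J01Rik spans Ceacam1 and Ceacam2 without sharing exon bases with either, with a log2 fold change of -1.11 (SE 0.41, edgeR adjusted p = 0.147). The cornifelin gene Cnfn, which encodes a cornified envelope protein, had -1.16 (SE 0.38, edgeR adjusted p = 0.119), and DESeq2 called it lower. Lipe had the smallest p of the lower genes, with -0.61 (SE 0.13, edgeR adjusted p = 0.0509), and did not overlap between groups. It was called lower by DESeq2 and voom, and by edgeR with filterByExpr or upper-quartile scaling.

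**Figure D3:**
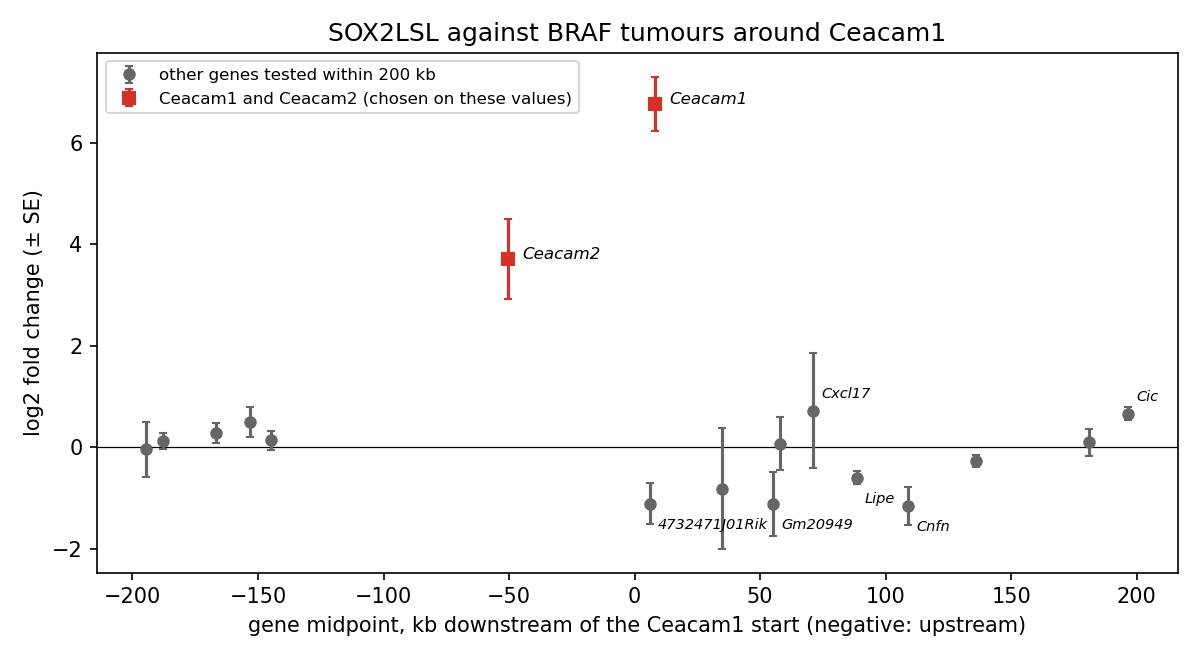
Log2 fold change (± standard error) of genes tested within 200 kb of Ceacam1, by distance of the gene's midpoint from the Ceacam1 start in kb. Ceacam1 at 6.76 and Ceacam2 at 3.71 (squares) lie above the other genes (circles), which range from -1.16 to 0.72.

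The partners and regulators of CEACAM1 were counted in a list of 42 genes, of which 41 were tested. Of these, 5 were higher and 0 lower by edgeR (12.2%, beside 3.90% of all genes called). At an unadjusted p below 0.05, 18 were higher and 4 lower (14.5% and 11.2% of all genes), DESeq2 called 12 higher and 3 lower (10.5% and 7.76%), and voom 8 and 1 (4.80% and 3.97%). The median log2 fold change was 0.22. Without 1 tumour the number called was 0, 0 and 2 for BRAF 1, 2 and 3 and 9, 2 and 3 for SOX2LSL 1, 2 and 3, and it was 1 with sex as a covariate. All 5 lost the call without BRAF 1 or BRAF 2, Lyn, Anxa2, Itgb3 and Nfkb1 also without BRAF 3, Anxa2, Itgb3 and Nfkb1 without SOX2LSL 2, and Itgb3 and Nfkb1 without SOX2LSL 3. With sex as a covariate S100a10 alone of the 5 kept its call, and Itgb3 also lost its call with upper-quartile scaling.

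Among the 11 signalling genes, Lyn, a SRC-family kinase that phosphorylates the CEACAM1 tail, was the 1 called (9.09%, beside 3.90% of all genes). In this group 8 were higher and 2 lower without overlap (18.2% and 16.0% of all genes), and the median log2 fold change was 1.01. At an unadjusted p below 0.05, 7 were higher and 1 lower (14.5% and 11.2% of all genes). DESeq2 called 6 higher and 1 lower (10.5% and 7.76%), and voom 4 and 1 (4.80% and 3.97%). Lyn had 9.99, 9.10 and 10.0 CPM in the BRAF tumours and 44.4, 25.2 and 26.0 CPM in the SOX2LSL tumours (log2 fold change 1.71, SE 0.25, edgeR adjusted p = 0.0238). Ptpn6, which encodes SHP-1, had 6.67 ± 0.848 and 15.2 ± 6.31 CPM (SD, n = 3) and did not overlap between groups, with an edgeR adjusted p = 0.0713. Ptpn11, which encodes SHP-2, had 136.5 and 140.8 CPM on average (edgeR adjusted p = 0.845).

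Of the 12 binding partners tested, S100a10, Anxa2 and Itgb3 were called, 7 were higher and 0 lower at an unadjusted p below 0.05, and DESeq2 called 5 higher and voom 3. S100a10 and Anxa2 encode the subunits of the annexin A2 complex at the plasma membrane and had log2 fold changes of 1.55 (SE 0.18, edgeR adjusted p = 0.0143) and 0.97 (SE 0.15, edgeR adjusted p = 0.0266). Itgb3 encodes integrin beta 3 and had 0.91 (SE 0.18, edgeR adjusted p = 0.046). Havcr2, which encodes the CEACAM1 ligand TIM-3, had 0.887, 1.06 and 2.52 CPM in the BRAF tumours and 3.81, 2.98 and 4.33 CPM in the SOX2LSL tumours (edgeR adjusted p = 0.121).

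Of the 12 regulators, Nfkb1, an NF-kappaB subunit, was called (8.33%, beside 3.90% of all genes). Nfkb1 had 88.3 CPM on average in BRAF and 149 CPM in SOX2LSL tumours (log2 fold change 0.76, SE 0.12, edgeR adjusted p = 0.0281). Irf1, which encodes an interferon-induced activator, had 1.04 on the log2 scale (edgeR adjusted p = 0.163), and Sox9, a SOX factor, had -0.48 (edgeR adjusted p = 0.297). In this group 4 were higher and 1 lower at an unadjusted p below 0.05 (14.5% and 11.2% of all genes). DESeq2 called 1 higher and 1 lower (10.5% and 7.76%), and voom 1 higher (4.80%). None of the 6 splicing factors was called by edgeR, and 2 were lower at an unadjusted p below 0.05 (11.2% of all genes). DESeq2 called 1 lower (7.76%) and voom 0.

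The genes whose pattern over the 6 tumours was most like that of Ceacam1 were Kcnc2, Fcgbp, Atp2a1, Slc9a2, Gadl1, Sprr2a2, Il19 and Cdh6. Likeness was the root mean square difference of centred log2 CPM, which was 0.35 for Kcnc2, a potassium channel gene, and 0.80 for Cdh6, a cadherin gene. Fcgbp, which encodes a mucus protein, had 1.56 ± 1.30 and 126 ± 58.2 CPM (SD, n = 3). Slc9a2, a sodium-proton exchanger gene, had 0.342 ± 0.314 and 73.1 ± 24.0 CPM. Atp2a1 encodes the calcium pump of fast skeletal muscle and had 0.58 ± 0.388 and 143 ± 79.3 CPM. Kcnc2 had 3, 0 and 2 reads in the BRAF tumours and 12.6, 12.5 and 11.8 CPM in the SOX2LSL tumours, and Gadl1 1, 0 and 1 reads and 5.26, 5.86 and 4.55 CPM. Neither exceeded 3 counts in a BRAF tumour, so their log2 CPM there depends on the prior count of 2. Likeness with another prior count was not computed. The small proline-rich gene Sprr2a2 had 6.83 ± 7.70 and 302 ± 56.4 CPM, the cytokine gene Il19 0.466 ± 0.295 and 104 ± 66.2 CPM, and Cdh6 0.592 ± 0.537 and 76.0 ± 71.9 CPM. By Pearson correlation instead, 2 of these 8 genes (Kcnc2 and Slc9a2) were again among the 8 most alike.

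**Figure D4:**
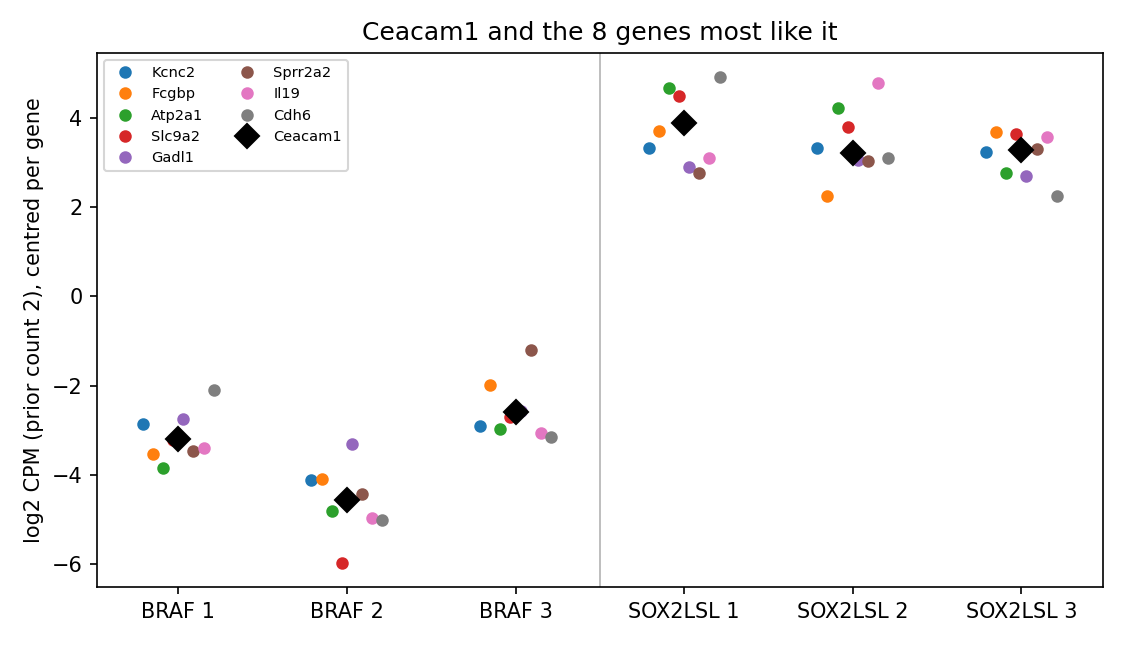
Log2 CPM (prior count 2), centred on each gene's mean, of Ceacam1 (diamonds) and the 8 genes most like it (circles) in each tumour. All 9 genes are below 0 in the BRAF tumours and above 0 in the SOX2LSL tumours, and BRAF 2 is the lowest tumour for Ceacam1.

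Markers of other cell types were summed in each tumour. Skeletal muscle markers summed to 0.955 to 2.90 CPM in BRAF and 186 to 859 CPM in SOX2LSL tumours. Of the 6, 5 were called higher by edgeR (83.3%, beside 2.39% of all genes called higher), among them Acta1, Tnnt3, Myh1 and Mylpf. All 6 were higher without overlap (18.2% of all genes) and at an unadjusted p below 0.05 (14.5%), DESeq2 called 5 (10.5%) and voom 2 (4.80%). Without BRAF 1 or BRAF 2 none of these 5 kept its call, Tnnt3, Mylpf and Ckm also lost it without BRAF 3 and with voom, Mylpf and Ckm without SOX2LSL 2, and Mylpf with sex as a covariate. Mucous and glandular epithelium markers summed to 11.5 to 35.9 and 158 to 764 CPM, with 1 of 10 tested called (10.0%, beside 3.90% of all genes). Tff2, Tff3 and Agr2 did not exceed 3 reads. The called gene was Epcam, an epithelial adhesion gene (log2 fold change 3.67, edgeR adjusted p = 0.0309). It lost the call with sex as a covariate and in all fits without a tumour except that without SOX2LSL 1. At an unadjusted p below 0.05, 6 of these markers were higher (14.5% of all genes), DESeq2 called 4 (10.5%) and voom 2 (4.80%). In SOX2LSL 2 and 3 Epcam was 140.6 and 155 CPM of the 158 and 172 CPM summed. Without Epcam, left out after the values were seen, the sums were 5.90, 3.46 and 7.13 CPM in the BRAF tumours and 335, 17.4 and 16.3 CPM in the SOX2LSL tumours. Muc5ac, Muc16, Krt8 and Tff1, like Epcam, were higher without overlap (18.2% of all genes). Krt7, Krt18, Krt19 and Spdef overlapped between groups, and Muc5b had a log2 fold change of -0.62. SOX2LSL 1 had the highest sum of this list and the highest Ceacam1. It also had the highest sums of macrophage, fibroblast and sebaceous gland markers given below. The highest sums of skeletal muscle and neutrophil markers were in SOX2LSL 2.

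Among leukocytes that carry CEACAM1, neutrophil markers summed to 333 to 1211 CPM in BRAF and 1461 to 2127 CPM in SOX2LSL tumours. Of these, 1 of 10 tested was called (10.0%, beside 3.90% of all genes). The called gene was Ltf, lactotransferrin, which epithelia also make, and it lost the call without BRAF 1 or BRAF 2. At an unadjusted p below 0.05, 5 neutrophil markers were higher (14.5% of all genes), DESeq2 called 4 (10.5%) and voom 3 (4.80%). Without Ltf, left out after the values were seen, the sums were 333, 415.5 and 1210.0 CPM in the BRAF tumours and 389, 1959 and 1355 CPM in the SOX2LSL tumours, and the groups overlapped. S100a8 and S100a9 overlapped too, whereas Csf3r (7.73 and 24.3 CPM on average), Cxcr2, Mmp8 and Ly6g were higher without overlap (18.2% of all genes). Elane did not exceed 3 reads, and the granulocyte genes Ly6g and Mpo were at or below 0.196 and 0.194 CPM in every tumour. Macrophage markers summed to 63.2 to 143.6 and 152 to 573 CPM, with 1 of 6 called (Csf1r, the CSF1 receptor, lost with sex as a covariate and in the fits without a tumour except that without SOX2LSL 1). All 6 were higher at an unadjusted p below 0.05 (14.5% of all genes), 5 of them without overlap (18.2%), and DESeq2 called 5 (10.5%) and voom 2 (4.80%). The endothelial sums overlapped, with 157.5 to 178 and 175 to 204 CPM. Pecam1 and Lyve1 were higher and Kdr lower without overlap (18.2% and 16.0% of all genes), and DESeq2 called 1 of the 8 markers higher and 1 lower (10.5% and 7.76%). Intestinal epithelium, which has much CEACAM1, was near the limit, with summed levels of 0.239 to 0.57 and 0.162 to 0.476 CPM, and its factor Cdx2 did not exceed 3 reads. Sebaceous gland markers summed to 8.91 to 43.6 CPM in BRAF and 66.2 to 121 CPM in SOX2LSL tumours, without overlap. Of these, 3 of 6 were higher without overlap (18.2% of all genes). Fibroblast markers summed to 408 to 2512 and 1919 to 4284 CPM, with Pdgfra higher without overlap, and T and NK cell markers to 1.71 to 4.66 and 3.08 to 7.04 CPM, with Nkg7 higher without overlap. Both sums overlapped between groups. Sums also overlapped for melanocytes (2.31 to 10.1 and 9.20 to 10.0 CPM, with Pmel higher without overlap), hair follicle (0.323 to 57.6 and 0.867 to 9.43 CPM) and B cells (0.333 to 0.832 and 0.308 to 0.421 CPM, with Cd79a not above 3 reads). EdgeR called no marker of sebaceous gland, fibroblast, T and NK cell, melanocyte, hair follicle or B cell. At an unadjusted p below 0.05, 1 was higher in each of the first 4 (14.5% of all genes). DESeq2 called 1 of sebaceous gland and 1 of fibroblast higher (10.5%), and voom 1 of fibroblast (4.80%). The part of these cell types in the Ceacam1 values was not tested.

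The member values held their size across settings to different degrees. The log2 fold change of Ceacam1 stayed between 6.38 and 7.24 when any tumour was left out, and that of Ceacam19 between -1.26 and -0.38. That of Ceacam2 ranged from 2.80 to 4.44 and that of Ceacam16 from -0.92 to -0.14.

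**Figure D5:**
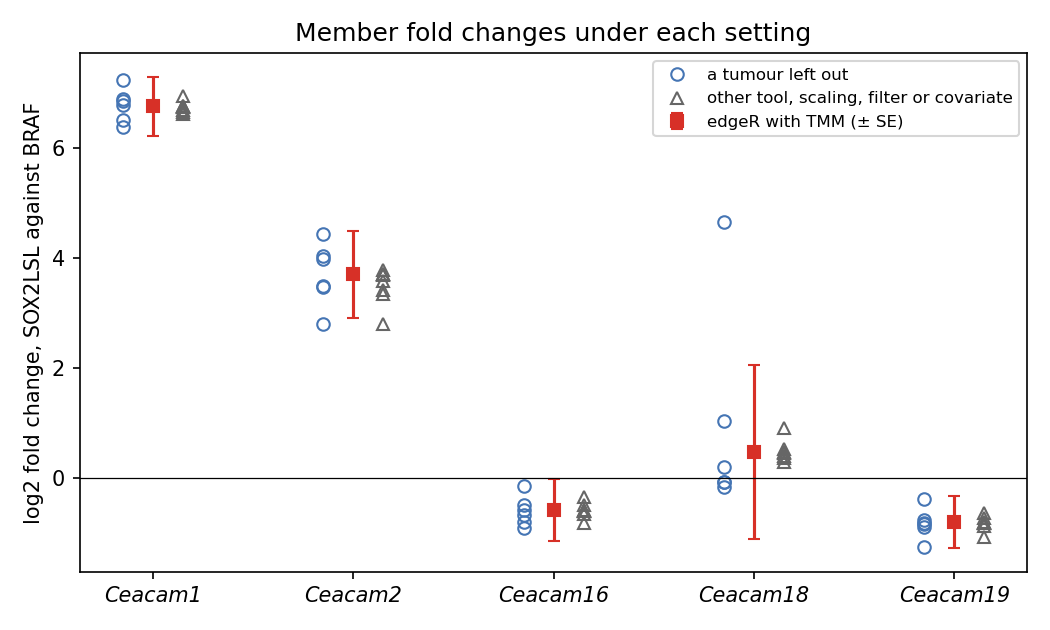
Log2 fold change of the 5 members that passed the filter, from edgeR with TMM (squares, ± standard error), with a tumour left out (circles) and with another tool, scaling, filter or covariate (triangles). Ceacam1 lies between 6.38 and 7.24 throughout, and Ceacam18 spreads from -0.17 to 4.66.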

How the data were processed

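Bulk RNA of mouse skin tumours was sequenced after depletion of ribosomal RNA. According to the submitters' processing notes and the study's methods, the authors checked reads with FastQC 0.11.8, trimmed them with Trim Galore, aligned them to GRCm38 with HISAT2 2.1.0 and counted them per gene with featureCounts (Subread 1.6.3). They deposited raw counts per gene. How strand and multimapping reads were treated is not given in the sources used here, which bears on close paralogs. Columns were assigned to genotypes through mouse names in the study's Source Data, and 1 column that matched no listed mouse was not used.

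The filter asked for a minimum of 5 reads in any tumour and left 24433 of 55423 features, which were scaled by TMM and compared with the quasi-likelihood test of edgeR 4.0.16 in R 4.3.3, with Benjamini-Hochberg adjustment over all genes at 0.05. Levels are CPM (counts scaled to library size) after TMM, and log2 CPM used a prior count of 2. Levels per kb used the union of GENCODE M21 exons. Promoters came from RefSeq on GRCm38.p6 and were aligned with Biopython 1.88. Scripts were tested on simulated counts. DESeq2 1.42.0, limma 3.58.1, other scalings and filters, sex as a covariate and leaving out each tumour were the alternatives. The members, gene lists and markers were chosen with earlier results of these data known. Named were all members, Sox2 and EGFP, up to 4 called genes with the smallest p per list and direction, Ptpn6, Ptpn11, Havcr2, Sox9, Irf1, Tecta and Tectb, the 8 genes most like Ceacam1, and markers near 0. Other genes named were chosen after their values were seen. The tumours of a group came from separate mice.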

Additional observations from a re-analysis of the deposited data

How the results depend on the processing

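No paired analysis was possible because the columns carry mouse names and no replicate numbers, so the replicate block was not run. The log2 fold changes of Ceacam1, Ceacam16 and Ceacam19 moved by less than the spread between tumours under every alternative run. That of Ceacam2 was 2.80 with limma voom and 2.80 to 4.44 with a tumour left out, and that of Ceacam18, -0.17 to 4.66 with a tumour left out. Over all genes, 1759 genes were called without a filter, 3653 by DESeq2, 2142 by voom and 228 with sex as a covariate, against 954, and 22 to 1575 with a tumour left out. DESeq2 called 1 of the other Ceacam and Psg genes. Of the CEACAM1 partners and regulators, 9 were called without a filter, 15 by DESeq2, 9 by voom and 1 with sex, and 0 to 9 with a tumour left out. Near Ceacam1, 2 genes were called with filterByExpr, 3 by DESeq2, 2 by voom and 0 with sex, and 0 to 2 with a tumour left out. Pearson correlation kept 2 of the 8 genes most like Ceacam1. For 31 other genes named or called, 312 of 403 values kept direction and call, 80 lost and 11 gained the call, and 0 reversed. The cause was not tested. Depth limits Ceacam2, Ceacam10 and Ceacam18.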
